A study of Mus musculus with 98 samples.

Results

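Nascent RNA was set against total RNA in the quadriceps muscle of HSALR homozygous mice that had received PBS, the vehicle, with 4 days as the labelled time point. HSALR mice carry a human skeletal actin transgene (hACTA1) with an expanded CUG repeat, driven by the skeletal actin promoter, and serve as a model of myotonic dystrophy; the transgene is thus made in muscle fibres and not throughout the body. The members are 8 of the 98 libraries of the series, chosen by their labels: 4 of nascent RNA, the RNA that contains ethynyl uridine (EU), and 4 of the corresponding total RNA, joined by replicate number. All 8 share genotype, tissue and vehicle, and neither wild-type nor treated mice stand on either side of the comparison. Mice of the same genotype given the antisense conjugate EEV4-PMO at 15 mg/kg, labelled 1 day or 2 days, gave 12 further nascent and total libraries, used for a check and, in the splicing tests, for the estimate of the spread. The age of the mice and the length of the EU pulse are not given in the sources used here, and whether each number is a separate animal is not stated, so the p-values measure the spread between these libraries.

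EU is a uridine analogue that cells build into RNA while they transcribe, so that RNA made during the pulse can be tagged and pulled out of the rest. Long-lived messages make up much of total RNA but little of what is made in a short time, whereas short-lived messages take a larger share of nascent RNA than of total RNA. Nascent RNA also holds transcripts from which introns have not yet been removed, since splicing takes place during and shortly after transcription. In skeletal muscle, the contractile and energy genes are known for abundant and stable messages, and transcription factors and immediate early genes for short-lived ones.

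Gene levels were the authors' TPM, a level per transcript length that is a share of a fixed total, and splicing was given as percent spliced in (PSI), the fraction of transcripts from 0 to 1 that hold an alternative exon or intron. Neither table holds counts, so the depth of each library is unknown. Genes of at least 1 TPM numbered 13802 to 13973 in the nascent and 12865 to 13106 in the total libraries. The 10 most abundant genes took 17.3 to 19.6% of the TPM in nascent and 24.7 to 28.6% in total RNA. The 10 skeletal muscle defining markers, among them Ckm, Acta1 and Myh4, were all present and summed to 70344 to 77883 TPM in nascent and 148129 to 166039 TPM in total RNA.

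Of 13971 genes with a mean of at least 1 TPM, 8794 (62.9%) were higher and 3125 (22.4%) lower in nascent RNA at an adjusted p under 0.05 in the paired limma fit on log2(TPM + 1). For 8105 genes (58%) every nascent library lay above every total library, and for 2719 (19.5%) every nascent library lay below. TPM is a share of a fixed total, and the typical gene lay above 0, with a median log2 difference of 0.73. With each library's median over the tested genes set equal, all differences shift down by 0.82 on the log2 scale, and 5240 genes (37.5%) were higher and 6267 (44.9%) lower. Since all differences shift down together, genes called lower could hardly lose that call, and all 3125 kept it. Of the genes called higher, 1463 were called lower with equal medians. The directions below are therefore given as TPM shows them, followed by the counts with equal medians. For lists low in nascent RNA, those counts add no separate support. Folds on the log2(TPM + 1) scale understate the change of genes at low levels.

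Noncoding RNAs that stay in the nucleus were among the classes highest in nascent RNA. Malat1, a nuclear speckle RNA, had 7692, 8372, 7909 and 8941 TPM in the nascent libraries, against 1169, 1309, 1158 and 1301 TPM in the total libraries, and every nascent library lay above every total library (log2 difference 2.74, SE 0.04, adjusted p = 2.0e-06). Neat1, the scaffold of paraspeckles, had 592, 839, 660.2 and 634 TPM in the nascent libraries, against 83.4, 108, 85 and 95.6 TPM in the total libraries. Again the groups did not overlap (log2 difference 2.86, SE 0.05, adjusted p = 2.0e-06). Of this list, 14 of 15 tested were higher and 0 lower in nascent RNA, with a median log2 difference of 1.91; with equal medians the counts were 11 higher and 2 lower. Hotairm1 was the 1 member that did not pass. Over all genes typed as long noncoding RNA in RefSeq, 612 of 723 were higher and 31 lower (432 and 110 with equal medians; median log2 difference 1.43, against 0.64 over 12485 protein-coding genes).

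Genes of transcription and splicing control were higher in nascent RNA almost without exception. Among chromatin and transcription regulators, 34 of 34 tested were higher and 0 lower in nascent RNA, with a median log2 difference of 2.03 (30 higher and 1 lower with equal medians). Chd2, a chromatin remodeller, had 123, 129, 122 and 141 TPM in the nascent libraries, against 16.6, 19.1, 18.6 and 18.7 TPM in the total libraries (log2 difference 2.75, SE 0.05, adjusted p = 2.0e-06), with no overlap. Tet2, which oxidises methylated cytosine, averaged 82.2 ± 7.98 TPM in nascent RNA and 12.6 ± 0.78 TPM in total RNA (SD, n = 4 each; log2 difference 2.61, SE 0.06, adjusted p = 2.0e-06). Brd2, a reader of acetylated histones and the most abundant member, averaged 265 ± 7.52 TPM in nascent RNA and 60.7 ± 2.06 TPM in total RNA. Its log2 difference was 2.11 (adjusted p = 2.0e-06).

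The SR and hnRNP splicing regulators, which bind exons and introns to steer splice site choice, showed the same pattern: 39 of 39 tested were higher and 0 lower in nascent RNA, with a median log2 difference of 1.69 (34 higher and 1 lower with equal medians). Ptbp2, a polypyrimidine tract binding protein, had 70.1, 66.2, 67.7 and 73.3 TPM in the nascent libraries, against 10.5, 11.8, 11.1 and 12.2 TPM in the total libraries (log2 difference 2.50, SE 0.05, adjusted p = 2.0e-06). Clk4, a kinase of SR proteins, averaged 115 ± 6.39 TPM in nascent RNA and 22.3 ± 1.16 TPM in total RNA, and Hnrnpa2b1, the most abundant member, 391 ± 13.9 TPM in nascent RNA and 191 ± 7.28 TPM in total RNA. The groups did not overlap for any of these 3 genes. Of zinc finger transcription factor genes, 90 of 92 tested were higher and 1 lower in nascent RNA, with a median log2 difference of 1.67 (73 higher and 9 lower with equal medians). Zfp568 and Zfp113 led with log2 differences of 2.45 (adjusted p = 2.0e-06) and 2.35 (adjusted p = 2.1e-06). The exception was Zfp106, the most abundant member, at 376 ± 15.6 TPM in nascent RNA and 715 ± 35.2 TPM in total RNA and a log2 difference of -0.93 (adjusted p = 5.8e-06).

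The RNA-binding proteins tied to myotonic dystrophy were mostly higher in nascent RNA too, with a smaller median difference than the splicing regulators. Muscleblind proteins bind the expanded repeat, and CELF and RBFOX proteins act on many of the same exons. Of this list, 6 of 7 tested were higher and 0 lower in nascent RNA, with a median log2 difference of 1.17 (5 higher and 1 lower with equal medians), and Dmpk, the gene that holds the repeat in patients, did not pass the test. Over all genes, 62.9% were higher (37.5% with equal medians), with a median log2 difference of 0.73. Rbfox2 had 196, 179, 168 and 195 TPM in the nascent libraries, against 42.2, 45.8, 41.2 and 48.3 TPM in the total libraries (log2 difference 2.03, SE 0.05, adjusted p = 2.0e-06). Celf1 averaged 178 ± 9.1 TPM in nascent RNA and 50.7 ± 3.86 TPM in total RNA. Mbnl1, the most abundant, had 642, 578, 700.0 and 707 TPM in the nascent libraries, against 318, 304, 319 and 309 TPM in the total libraries, and the groups did not overlap (log2 difference 1.07, SE 0.06, adjusted p = 1.1e-05). With equal medians its log2 difference was 0.24 (adjusted p = 0.0085). The remaining members, Mbnl2, Celf2 and Rbfox1, had log2 differences of 1.39, 1.17 and 0.81. With equal medians these were 0.56, 0.35 and -0.01, and Rbfox1 did not pass (limma, adjusted p = 0.87).

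Signal-responsive and rhythmic genes were also high in nascent RNA. Among clock genes, 18 of 18 tested were higher and 0 lower in nascent RNA, with a median log2 difference of 1.57 (15 higher and 2 lower with equal medians). Usp2, a clock-controlled deubiquitinase, had 504, 547, 794 and 781 TPM in the nascent libraries, against 92.5, 108, 139 and 146 TPM in the total libraries (log2 difference 2.42, SE 0.04, adjusted p = 2.0e-06). Arntl, which encodes the clock activator BMAL1, averaged 53.1 ± 17.4 TPM in nascent RNA and 9.04 ± 3.79 TPM in total RNA. For both genes, no nascent library overlapped a total library. Immediate early genes are switched on within minutes of a signal and encode unstable messages; 23 of 27 tested were higher and 3 lower in nascent RNA, with a median log2 difference of 1.22 (17 higher and 4 lower with equal medians). Nr4a3, an orphan nuclear receptor induced by exercise, had 200.1, 166, 114 and 163 TPM in the nascent libraries, against 22.7, 21.5, 14.8 and 16.5 TPM in the total libraries, the largest difference of the list (log2 difference 3.02, SE 0.07, adjusted p = 2.0e-06). Atf3, a stress-induced transcription factor, averaged 371 ± 172 TPM in nascent RNA and 79.7 ± 29.6 TPM in total RNA, and Nr4a1 606 ± 56.6 TPM in nascent RNA and 143 ± 25.8 TPM in total RNA. The members lower in nascent RNA were Klf4, Klf2 and Rhob, at log2 differences of -1.23, -1.10 and -0.58.

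Of cytokine and stress response genes, 21 of 23 tested were higher and 1 lower in nascent RNA, with a median log2 difference of 1.51 (16 higher and 5 lower with equal medians). Bcl6, a transcriptional repressor, averaged 244 ± 34.3 TPM in nascent RNA and 51.8 ± 2.58 TPM in total RNA, and Tnfaip3, an inhibitor of NF-kappaB signalling, 30.4 ± 3.72 TPM in nascent RNA and 6.62 ± 0.751 TPM in total RNA. Sgk1, a kinase induced by glucocorticoids and the most abundant member, had 581, 448, 636 and 573 TPM in the nascent libraries, against 141, 146, 179 and 197 TPM in the total libraries (log2 difference 1.75, SE 0.09, adjusted p = 1.1e-05). The list's exception was Zfp36l2, which encodes a protein that speeds the decay of AU-rich messages, at a log2 difference of -1.08.

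Among muscle atrophy and neuromuscular genes, 18 of 22 tested were higher and 2 lower in nascent RNA, with a median log2 difference of 1.70 (16 higher and 5 lower with equal medians). Trim63, the muscle ubiquitin ligase MuRF1, had 1131, 971, 1113 and 1016 TPM in the nascent libraries, against 182, 185, 187 and 205 TPM in the total libraries. The groups stood far apart (log2 difference 2.47, SE 0.07, adjusted p = 2.0e-06). Fbxo32, the ligase atrogin-1, had 448, 596, 391 and 359 TPM in the nascent libraries, against 82.2, 133, 81.3 and 84.8 TPM in the total libraries (log2 difference 2.23, SE 0.07, adjusted p = 2.3e-06). Hdac4, a histone deacetylase that responds to loss of nerve input, averaged 152 ± 14.8 TPM in nascent RNA and 28.7 ± 3.63 TPM in total RNA. Fbxo31 and Chrne were lower; Chrne, the epsilon subunit of the adult acetylcholine receptor, stood at a log2 difference of -0.77. Fbxo32 and Neat1, and below hACTA1, Myh4, Atp2a1, Clcn1, Rn45s, Mir30e, Mir149 and Mir126a, were chosen after their values were seen, as were the list members named for their direction alone.

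For p53 target genes, 11 of 14 tested were higher and 2 lower in nascent RNA, with a median log2 difference of 1.13 (7 higher and 4 lower with equal medians). Sesn1 and Eda2r were higher at log2 differences of 2.23 (adjusted p = 2.0e-06) and 2.22 (adjusted p = 2.1e-06), whereas Plk2 and Ccng1 were lower. Ccng1, cyclin G1 and the most abundant member, averaged 339 ± 21.3 TPM in nascent RNA and 719 ± 32.2 TPM in total RNA, a log2 difference of -1.08 (adjusted p = 5.1e-06). Heat shock genes were split: 12 of 18 tested were higher and 3 lower in nascent RNA, with a median log2 difference of 1.06, and with equal medians 8 higher and 8 lower. Over all genes, 62.9% were higher and 22.4% lower, and 37.5% and 44.9% with equal medians, so these counts lay near those of all genes. Dnajb4 averaged 416 ± 54.2 TPM in nascent RNA and 79.6 ± 5.01 TPM in total RNA and Hspa1b, an inducible Hsp70, 131 ± 56.7 TPM in nascent RNA and 37.1 ± 8.09 TPM in total RNA. Hspa8, the constitutive Hsp70, averaged 2969 ± 458 TPM in nascent RNA and 1537 ± 44 TPM in total RNA, a log2 difference of 0.94 (adjusted p = 0.00015). With equal medians that difference was 0.11 and did not pass (adjusted p = 0.26).

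**Figure D1:**
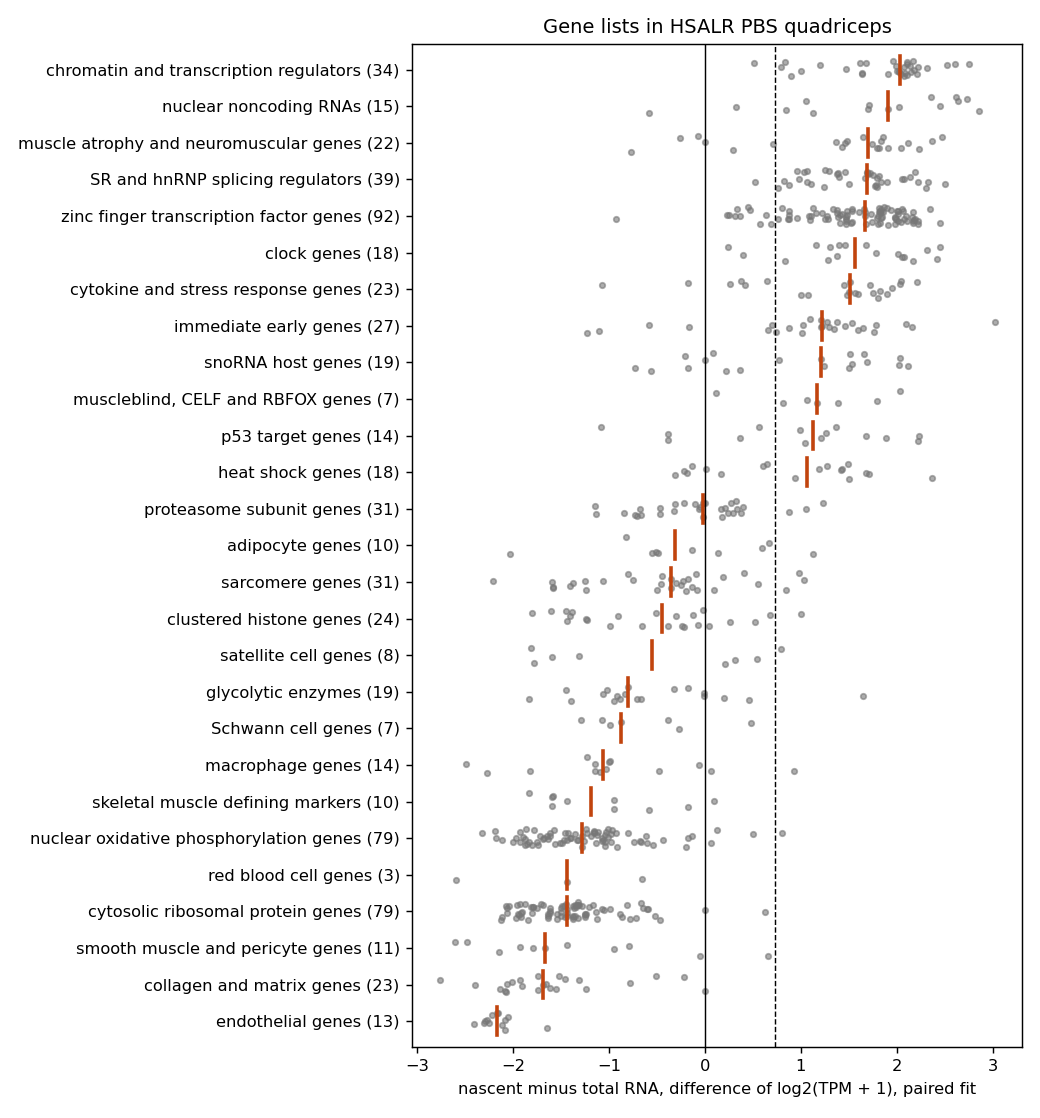
Each point is 1 tested gene, each row a gene list with its number of tested genes, and the x axis is the nascent minus total difference on the log2(TPM + 1) scale; red bars are list medians. The solid line is 0 and the dashed line the median of all 13971 genes, 0.73; medians run from 2.03 for chromatin and transcription regulators to -2.16 for endothelial genes.

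At the other end stood the genes of protein synthesis and energy supply. Of cytosolic ribosomal protein genes, 0 of 79 tested were higher and 77 lower in nascent RNA, with a median log2 difference of -1.44 (0 higher and 78 lower with equal medians), and the summed list held 12636 to 16435 TPM in nascent against 40108 to 43835 TPM in total RNA. Rplp0, of the ribosomal stalk, had 270.4, 261, 262 and 192 TPM in the nascent libraries, against 1075, 1135, 1028 and 999.6 TPM in the total libraries (log2 difference -2.11, SE 0.08, adjusted p = 3.7e-06). Rpl35 and Rplp1 averaged 225 ± 16.8 TPM in nascent RNA and 982 ± 55.9 TPM in total RNA, and 363 ± 71.1 TPM in nascent RNA and 1500.3 ± 56.1 TPM in total RNA. Rpl34 and Rpl30 were the members that did not pass, and both belong to families with many near-identical pseudogene copies, as do most ribosomal protein genes, so reads may be split between copies.

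Nuclear genes of oxidative phosphorylation gave 2 higher and 72 lower of 79 tested, with a median log2 difference of -1.28 (0 higher and 78 lower with equal medians). Atp5e, the epsilon subunit of ATP synthase, had 415, 394, 414 and 282 TPM in the nascent libraries, against 1712, 1893, 1927 and 1943 TPM in the total libraries (log2 difference -2.32, SE 0.12, adjusted p = 1.2e-05). Ndufc1, of complex I, averaged 189.8 ± 28.2 TPM in nascent RNA and 862 ± 36.2 TPM in total RNA, and Atp5b, the catalytic beta subunit and the most abundant member, 1496 ± 73.9 TPM in nascent RNA and 2961 ± 233 TPM in total RNA. The 2 members higher in nascent RNA were Cox6a1 and Cox8a. The proteasome lay between both ends: 12 of 31 tested were higher and 12 lower in nascent RNA, with a median log2 difference of -0.02, and with equal medians 2 higher and 28 lower. Psmd7, of the regulatory particle, averaged 361 ± 12.1 TPM in nascent RNA and 153 ± 6.58 TPM in total RNA. Psmb4, of the catalytic core, averaged 124 ± 20.8 TPM in nascent RNA and 272 ± 12.8 TPM in total RNA. The mitochondrially encoded messages have no value in the table and were not analysed here.

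The contractile apparatus and glycolysis were mostly lower in nascent RNA. Of sarcomere genes, 5 of 31 tested were higher and 21 lower in nascent RNA, with a median log2 difference of -0.35, and with equal medians 2 higher and 28 lower. Mylpf, the fast regulatory light chain, had 9803, 8058, 9184 and 6955 TPM in the nascent libraries, against 26836, 22455, 27180.3 and 25248 TPM in the total libraries (log2 difference -1.59, SE 0.08, adjusted p = 1.3e-05). Myl3, the slow light chain, varied widely between libraries, with 16.7, 95.6, 11.6 and 39.8 TPM in the nascent libraries, against 88.1, 433, 49.8 and 204 TPM in the total libraries. The Myl3 groups overlap, yet the difference within each pair was similar (log2 difference -2.21, SE 0.07, adjusted p = 2.3e-06). Not all of the sarcomere followed: Myh4, the fast IIB myosin heavy chain, had 23647, 18126, 20435 and 18799 TPM in the nascent libraries, against 22739, 16952, 19952 and 16508 TPM in the total libraries. Its groups overlap and it did not pass, at a log2 difference of 0.09 (adjusted p = 0.18), and with equal medians it was -0.73 (adjusted p = 0.00014). Tnnc2, fast troponin C, was higher, at a log2 difference of 1.04.

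Among glycolytic enzymes and their partners, 2 of 19 tested were higher and 14 lower in nascent RNA, with a median log2 difference of -0.80 (1 higher and 17 lower with equal medians). Ckm, muscle creatine kinase and listed here as an energy enzyme, had 7919, 6853, 7815 and 6542 TPM in the nascent libraries, against 28378, 23974, 26000.5 and 25258 TPM in the total libraries (log2 difference -1.83, SE 0.06, adjusted p = 2.7e-06). Mb, myoglobin, averaged 1950.4 ± 439.6 TPM in nascent RNA and 5807 ± 987 TPM in total RNA. The members higher in nascent RNA were Phkg1, of phosphorylase kinase, and Hk2, a hexokinase of muscle, with 658, 681, 713 and 662 TPM in the nascent libraries, against 198, 219.6, 224 and 221 TPM in the total libraries for Hk2 (log2 difference 1.65, SE 0.04, adjusted p = 2.0e-06). Every nascent library of Hk2 lay above every total library, the reverse of Ckm.

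The transgene and the endogenous skeletal actin, which encode the same protein, moved apart. hACTA1 had 28174, 26291, 23118 and 23636 TPM in the nascent libraries, against 19736, 14013, 17016 and 15914 TPM in the total libraries. The groups did not overlap (log2 difference 0.61, SE 0.09, adjusted p = 0.0013), but with equal medians the difference was -0.22 and did not pass (adjusted p = 0.1). Acta1, the mouse gene, had 19519, 19349, 19183 and 16582 TPM in the nascent libraries, against 59178, 54776, 55014 and 54409 TPM in the total libraries, lower in every nascent library under either scaling (log2 difference -1.58, SE 0.07, adjusted p = 5.8e-06). The coding sequences of the human and the mouse gene are nearly the same, so reads may be split between both entries and their separate levels are uncertain. Among genes whose exons are known to be misspliced in this model, Atp2a1, the fast calcium pump, averaged 7325 ± 362 TPM in nascent RNA and 22045 ± 1647 TPM in total RNA (log2 difference -1.59, SE 0.06, adjusted p = 5.0e-06). Clcn1, the muscle chloride channel, averaged 247 ± 15.6 TPM in nascent RNA and 59.7 ± 5.46 TPM in total RNA (log2 difference 2.04, SE 0.04, adjusted p = 2.0e-06).

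**Figure D2:**
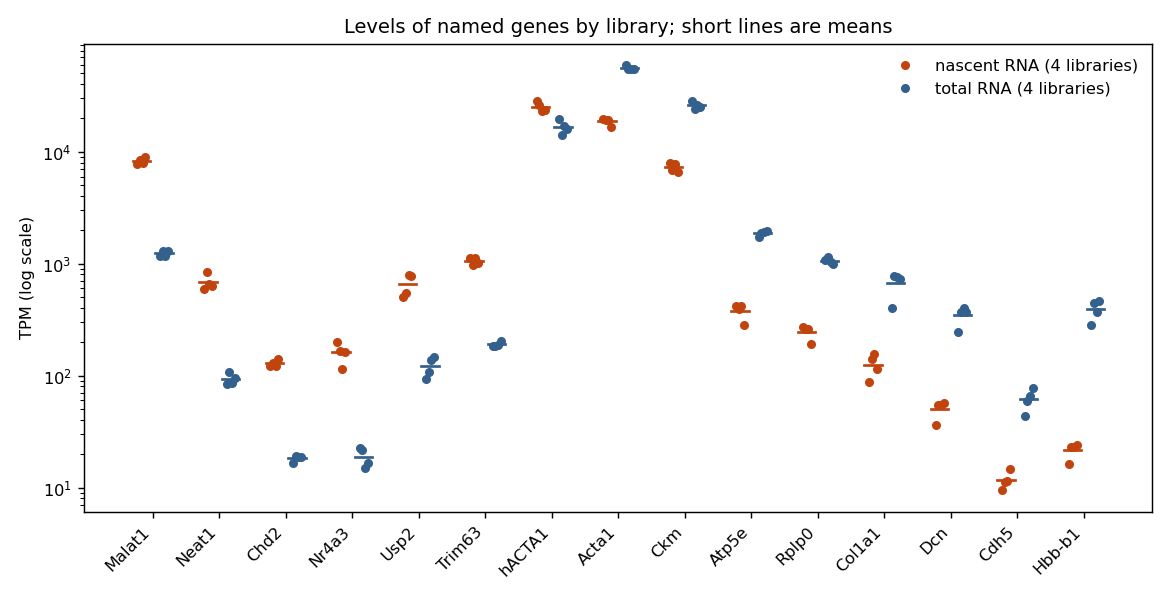
TPM on a log axis in each of the 4 nascent (left, red) and 4 total (right, blue) libraries for 15 named genes; short lines are means. The nascent points of Malat1, Neat1, Chd2, Nr4a3, Usp2, Trim63 and hACTA1 lie above the total points, and those of the other 8 genes below.

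Matrix genes were low in nascent RNA. Of collagen and matrix genes, 0 of 23 tested were higher and 21 lower in nascent RNA, with a median log2 difference of -1.69 (0 higher and 23 lower with equal medians). Dcn, the proteoglycan decorin, had 35.8, 54.4, 54.5 and 57.4 TPM in the nascent libraries, against 247, 372, 400.3 and 372 TPM in the total libraries (log2 difference -2.76, SE 0.04, adjusted p = 2.0e-06). Col1a1, a chain of type I collagen, had 88.3, 142, 154 and 115 TPM in the nascent libraries, against 398, 776, 767 and 729 TPM in the total libraries, again with no overlap (log2 difference -2.39, SE 0.08, adjusted p = 3.3e-06). Clustered histone genes, whose messages mostly lack a poly(A) tail, gave 2 higher and 10 lower of 24, with a median of -0.45 (0 higher and 18 lower with equal medians). Hist2h3b averaged 2.08 ± 1.64 TPM in nascent RNA and 8.77 ± 2.09 TPM in total RNA, and Hist1h1c, a linker histone, 254 ± 41.8 TPM in nascent RNA and 125 ± 13.1 TPM in total RNA. Hist1h3b averaged 0.0825 ± 0.165 TPM in nascent RNA and 2.98 ± 2.26 TPM in total RNA, with overlapping groups. Its call was lost under some alternatives. Histone genes are near-identical copies, so reads may be split between them.

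Markers of the other cell types in the muscle were mostly low in nascent RNA. A level in bulk RNA does not tell fewer cells of a type apart from less RNA per cell; here both RNAs of a pair are labelled as corresponding, so the comparison is of shares within a sample. All 13 endothelial genes were lower (13 with equal medians), with log2 differences from -2.41 to -1.64, and their sum was 64.1 to 85.2 TPM in nascent against 309 to 435 TPM in total RNA. Cdh5, the endothelial cadherin, had 9.43, 11.2, 11.5 and 14.5 TPM in the nascent libraries, against 43.8, 59.6, 66.3 and 77.3 TPM in the total libraries (log2 difference -2.29, SE 0.07, adjusted p = 2.2e-06). Vwf and Kdr had log2 differences of -2.41 (adjusted p = 3.3e-06) and -2.30 (adjusted p = 2.0e-06).

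Macrophage genes gave 1 higher and 11 lower of 14 tested (0 higher and 13 lower with equal medians), with log2 differences from -2.49 to 0.93. Their sum was 75.7 to 103 TPM in nascent against 143 to 193 TPM in total RNA. Tyrobp, a signalling adaptor, averaged 0.273 ± 0.382 TPM in nascent RNA and 5.94 ± 0.794 TPM in total RNA. Lyz2, lysozyme, averaged 10.7 ± 2.53 TPM in nascent RNA and 55.1 ± 10.2 TPM in total RNA. Smooth muscle and pericyte genes gave 1 higher and 9 lower of 11 tested (0 higher and 10 lower with equal medians), with log2 differences from -2.60 to 0.66. Their sum was 1139.8 to 1280.1 TPM in nascent against 2913 to 3261 TPM in total RNA. Kcnj8 and Pdgfrb were the lowest, at log2 differences of -2.60 (limma, adjusted p = 9.3e-06) and -2.48 (limma, adjusted p = 2.0e-06). Des, the most abundant of that list, is also a muscle gene. Schwann cell genes gave 1 higher and 5 lower of 7 tested (0 higher and 7 lower with equal medians), with log2 differences from -1.29 to 0.48. Their sum was 69.3 to 82.6 TPM in nascent against 137 to 182 TPM in total RNA. Mbp, a myelin protein, averaged 9.26 ± 1.07 TPM in nascent RNA and 20.8 ± 4.45 TPM in total RNA, and Pmp22, of peripheral myelin, 27.3 ± 2.4 TPM in nascent RNA and 55.1 ± 6.85 TPM in total RNA.

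Red blood cell genes gave 2 of 3 tested lower (0 higher and 3 lower with equal medians) and a sum of 78.7 to 153 against 491 to 803 TPM. Hba-a1, alpha globin, had 77.3, 113, 104 and 146 TPM in the nascent libraries, against 483, 726, 654 and 793 TPM in the total libraries (log2 difference -2.59, SE 0.05, adjusted p = 2.0e-06). Alas2, the red cell enzyme of haem synthesis, averaged 0.597 ± 0.199 TPM in nascent RNA and 3.38 ± 1.03 TPM in total RNA. Adipocyte genes were mixed, with 3 higher and 5 lower of 10 (1 higher and 8 lower with equal medians). Their sum was 1420.4 to 2179 TPM in nascent against 2505 to 3374 TPM in total RNA. Car3, the most abundant of that list, averaged 1123 ± 90.5 TPM in nascent RNA and 1977 ± 123 TPM in total RNA, so the sum mostly follows Car3. Plin1, which coats lipid droplets, averaged 49.2 ± 28.1 TPM in nascent RNA and 21.3 ± 10.9 TPM in total RNA and Cfd, adipsin, 46 ± 25.7 TPM in nascent RNA and 198 ± 124 TPM in total RNA. For Plin1 and for Cfd, both groups of libraries overlap.

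Satellite cell genes gave 3 higher and 4 lower of 8 (0 higher and 6 lower with equal medians); their sum was 81.4 to 88.8 against 76.6 to 90.0 TPM. Spry1, a receptor kinase inhibitor, averaged 46 ± 3.53 TPM in nascent RNA and 26 ± 2.08 TPM in total RNA, and Heyl, a Notch target, 1.54 ± 0.22 TPM in nascent RNA and 7.97 ± 1.64 TPM in total RNA. Spry1 turned to -0.03 with equal medians. Of 11 lymphocyte genes only Cd3d reached a mean of 1 TPM, and it was high in nascent RNA, with 27.5, 23, 29.2 and 31.2 TPM in the nascent libraries, against 2.06, 1.9, 2 and 1.91 TPM in the total libraries (log2 difference 3.27, SE 0.09, adjusted p = 2.0e-06). The other 10 lymphocyte genes did not reach the minimum. All 11 summed to 24 to 32.8 TPM in nascent against 4.24 to 6.25 TPM in total RNA. In nascent RNA that sum was nearly all Cd3d. What it held beside Cd3d was lower in nascent than in total RNA in every pair. The value of Cd3d is thus that of 1 gene and not of the lymphocyte list.

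Ranking by size put short RNAs at both ends and globins at the low end. Among called genes with a mean of at least 10 TPM and the same direction in all 4 pairs, the 12 most raised in nascent RNA were 6 ribosomal RNA entries, 5 microRNA hairpins and Pet117, a cytochrome oxidase assembly factor. The 6 ribosomal entries, Gm22109 among them, lie on chromosome 8 and have identical values: 356, 313, 279.7 and 1700.0 TPM in the nascent libraries, against 5.08, 6.04, 7.98 and 5.64 TPM in the total libraries. They are copies that share reads and count as 1. The log2 difference was 6.08 (adjusted p = 7.5e-05), and 1.61 in treated mice of the same cohort, where it did not pass (adjusted p = 0.26) and Gm22109 had 13.8, 12.3 and 4.93 TPM in nascent and 9.97, 12.9 and 10.4 TPM in total RNA at 1 day, and 14.6, 5.26 and 8454 TPM in nascent and 6.25, 8.96 and 8.58 TPM in total RNA at 2 days. Rn45s, the precursor of the large ribosomal RNAs, averaged 47470.4 ± 5326 TPM in nascent RNA and 29211 ± 1868 TPM in total RNA after ribosomal RNA depletion. Its log2 difference was 0.70 (adjusted p = 0.00052), and -0.13 with equal medians. Pet117 had 33.1, 52.7, 28.8 and 63.8 TPM in the nascent libraries, against 2.32, 0, 1.63 and 0 TPM in the total libraries, and it lies inside Kat14 on the same strand, so reads of both cannot be told apart.

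MicroRNA hairpins were higher in nascent RNA in 210 of 465 cases and lower in 7, that is 45.2% higher against 62.9% of all genes (median log2 difference 1.75; 136 higher and 34 lower with equal medians). A hairpin entry is the stem-loop from which the mature microRNA is cut, and libraries of long RNA see it as part of the primary transcript. Of 232 tested hairpins inside an intron of a protein-coding gene on the same strand, 96 were higher and 6 lower (61 and 13 with equal medians). Where the host gene was tested as well (226 hairpins), 163 hairpins had a larger log2 difference than their host, with medians of 1.74 for the hairpins and 0.70 for the hosts. The minimum of 1 TPM is a mean over both RNAs, so a hairpin can be tested through its nascent level alone. Mir30e, at a mean of 41.6 TPM in nascent and 0.869 TPM in total RNA, is such a case. The filter may tilt the comparison with the hosts, which is a description with no test. Reads of a host intron and of a hairpin inside it cannot be told apart in these values.

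The 5 hairpins in the leading 12 were Mir3620 (inside Apex2), Mir6945 (in an exon of Pdlim7), Mir3100 (in an intron of Dmpk), Mir1963 (in an intron of Ryr1, the muscle calcium release channel) and Mir344b. Mir1963 had 319, 856, 568 and 992 TPM in the nascent libraries, against 32, 25, 14.1 and 23.3 TPM in the total libraries (log2 difference 4.73, SE 0.36, adjusted p = 5.8e-05). Mir3100 had 114, 355, 102 and 119.8 TPM in the nascent libraries, against 2.24, 13.2, 11.4 and 0 TPM in the total libraries (log2 difference 4.94, SE 0.59, adjusted p = 0.00041). Each nascent library was above each total library for both. Mir344b had 5.51, 18.9, 40.8 and 74.6 TPM in nascent RNA and is listed at 0 in all 4 total libraries. The muscle hairpins, named here after their values were seen, were high as well. Mir1a-1, of the muscle miR-1 family, had 994, 1516, 835 and 531 TPM in the nascent libraries, against 104, 91.9, 49.1 and 164 TPM in the total libraries (log2 difference 3.26, SE 0.41, adjusted p = 0.00055). Mir133a-2, from the same cluster, averaged 518 ± 277 TPM in nascent RNA and 70.3 ± 26.3 TPM in total RNA, and Mir486, in an intron of Ank1, 196 ± 67.7 TPM in nascent RNA and 11.3 ± 8.71 TPM in total RNA. Mir206 and Mir208b did not pass, and Mir133b, Mir499 and Mir1a-2 are listed at 0 in all 8 libraries. Mir126a, in the endothelial gene Egfl7, was lower in nascent RNA (log2 difference -2.66, SE 0.73, adjusted p = 0.016), though its groups overlap.

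The mature sequences of the hairpins these values turn on are shown to give their identity, from RefSeq on GRCm38.p6, 5′ to 3′, with the seed (bases 2 to 8) in capitals; no seed is shared among them. Mir30e, in an intron of Nfyc, and Mir149, in an intron of Gpc1, averaged 41.6 ± 22.3 TPM in nascent RNA and 0.869 ± 1.74 TPM in total RNA, and 82 ± 42.9 TPM in nascent RNA and 2.56 ± 1.95 TPM in total RNA.
mmu-miR-1963: uGGGACGAgaucaugaggccuuc
mmu-miR-3100-5p: uUGGGAACggggugucuuuggga
mmu-miR-3100-3p: cUGUGACAcacccgcucccag
mmu-miR-1a-1-5p: aCAUACUUcuuuauaugcccaua
mmu-miR-30e-5p: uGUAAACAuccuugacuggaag
mmu-miR-149-5p: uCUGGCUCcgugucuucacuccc
mmu-miR-126a-3p: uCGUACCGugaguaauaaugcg

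The 12 genes most reduced in nascent RNA held globins, small structured RNAs and matrix genes. Hbb-b1, beta globin, had 16.2, 22.8, 22.9 and 24 TPM in the nascent libraries, against 282, 448, 373 and 467 TPM in the total libraries (log2 difference -4.12, SE 0.06, adjusted p = 2.0e-06), and Hbb-b2 averaged 2.28 ± 1.68 TPM in nascent RNA and 50.4 ± 7.67 TPM in total RNA. Globin genes are near-identical copies. Rpph1, the RNA of RNase P, had 279.9, 330.0, 276 and 210.1 TPM in the nascent libraries, against 1633, 2255, 1538 and 1999 TPM in the total libraries (log2 difference -2.76, SE 0.13, adjusted p = 8.8e-06), and Rprl3, a related copy, averaged 1.59 ± 1.23 TPM in nascent RNA and 21.7 ± 6.53 TPM in total RNA. Snord15b, a nucleolar guide RNA inside Rps3, had 16, 16.8, 19.9 and 28 TPM in the nascent libraries, against 258, 309.7, 282 and 234 TPM in the total libraries (log2 difference -3.71, SE 0.18, adjusted p = 9.3e-06). Scarna10, a Cajal body RNA inside Ncapd2, averaged 20.7 ± 14.1 TPM in nascent RNA and 291 ± 36.6 TPM in total RNA, and Snora74a 16.5 ± 6.95 TPM in nascent RNA and 109 ± 16.8 TPM in total RNA. Gsn, the actin-severing protein gelsolin, averaged 149 ± 31.4 TPM in nascent RNA and 934 ± 106 TPM in total RNA, and Vtn, vitronectin, 2.37 ± 0.445 TPM in nascent RNA and 21 ± 3.43 TPM in total RNA. Snord15a, also inside Rps3, averaged 6.48 ± 7.57 TPM in nascent RNA and 38.5 ± 11.8 TPM in total RNA; its call was lost without pair 2 or pair 4.

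Of snoRNA host genes, 12 of 19 tested were higher and 2 lower in nascent RNA, with a median log2 difference of 1.21 (10 higher and 8 lower with equal medians); the share higher, 63.2%, was close to the 62.9% of all genes. Snhg11 averaged 6.71 ± 0.618 TPM in nascent RNA and 0.77 ± 0.072 TPM in total RNA, Snhg7 40.9 ± 4.77 TPM in nascent RNA and 9.26 ± 1.3 TPM in total RNA and Snhg1, the most abundant, 46.9 ± 7.72 TPM in nascent RNA and 19.6 ± 2.34 TPM in total RNA. Over all genes typed as snoRNA, 50 of 109 were higher and 5 lower in nascent RNA (45.9% higher, against 62.9% of all genes; 31 higher and 10 lower with equal medians). The median log2 difference was 1.29, with values from -3.71 to 4.02.

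Transcript length moved with the difference. Length, span and number of introns are those of the longest annotated protein-coding transcript of each gene, which need not be the one expressed. Over 12223 protein-coding genes with a GENCODE structure, split into 4 equal groups, the median log2 difference was -0.05 in the group with the shortest spliced transcripts (up to 2013 nucleotides), 0.64 and 0.86 in the middle groups and 1.03 in the longest (4692 nucleotides and more). By genomic span it was 0.24, 0.63, 0.73 and 0.85 from the shortest to the longest group, and by number of introns 0.68, 0.51, 0.62 and 0.72. The lists differ in length too: the median spliced transcript was 914 nucleotides for ribosomal protein genes and 875 for oxidative phosphorylation genes, against 9061 for chromatin regulators and 3158 over all genes. Collagen and matrix genes, at 5348 nucleotides, and endothelial genes, at 3995, were long and yet low in nascent RNA. The part of length in the list differences was not tested.

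Abundance moved with it as well: the median was 0.88 for genes of 10 to 30 TPM, 0.15 for 100 to 1000 TPM and -0.67 for the 75 genes of 1000 TPM and more. Among the last, 54 were lower and 13 higher. These groups use the mean of both RNAs, so the level and the difference are not independent.

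The 12 libraries of EEV4-PMO treated mice were compared in the same way. Of 11693 genes called in the PBS pairs and tested there, 10877 were called with the same sign, 11607 had the same sign and 7 were called with the other sign. A test of the difference between both contrasts (limma) called 0 of 13891 genes and 0 of 72651 events, while 1014 genes and 1928 events had an unadjusted p under 0.05. At 2 days alone, 1 gene was called, Txlnb, a muscle taxilin. The nascent library of replicate 3 at 2 days stands apart, with 77341 events with a value against 87434 and 87326 in the other nascent libraries of 2 days. Without its pair, 18 genes and 4 events were called. Those genes include Gm22109 and the ribosomal copies with identical values, which count as 1.

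Splicing was compared over 81191 events with a PSI in all 8 libraries. The paired limma fit of these libraries called 0 events at the thresholds used (adjusted p under 0.05, absolute PSI difference 0.1 or more), although 7828 had an unadjusted p under 0.05, against 723 higher and 443 lower without the pairing. A total of 16993 events had the same value in all 8 libraries. Over all events, the groups did not overlap for 3185 higher (3.92%) and 3593 lower (4.43%). The same contrast with the spread estimated over all 20 libraries of the cohort called 389 events higher (0.535% of 72651) and 204 lower (0.281%), all in the same direction in all 4 pairs. Without the treated pair that stands apart it called 584 higher and 333 lower. The events named below come from the 20-library fit, a choice made after the 8-library fit gave none, and their adjusted p-values are from it. In a limma fit of the treated libraries alone, these introns and exons with the largest differences kept their direction, but none passed.

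Retained introns made up the clearest difference between both RNAs. In the median over 2609 retained introns, the nascent libraries held 0.262, 0.232, 0.239 and 0.244 PSI and the total libraries 0.082, 0.085, 0.084 and 0.093 PSI. No nascent library came near a total library. For 894 introns (34.3%), in 727 genes, every nascent library lay above every total library, and for 15 (0.575%) every nascent library lay below. In the 20-library fit, 123 of 2125 introns (5.79%) were higher and 2 (0.0941%) lower. Of 824 introns that stood above without overlap and have a value in all 20 libraries, 817 had a higher mean PSI in nascent than in total RNA of the treated mice, and 354 stood above without overlap there as well.

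The other kinds of event differed less. Skipped exons leaned the other way: of 59414, 418 (0.704%) lay above and 2260 (3.8%) below total RNA without overlap, and 47 (0.0887%) and 74 (0.14%) of 52967 were called higher and lower in the 20-library fit. Skipped exons had a median PSI of 1 in every library, the upper bound, which leaves most of them little room to rise. Of the retained introns, 51.51 to 54.35% were at 0.1 or less in the total libraries, with little room to fall. The part of these bounds in both leans was not tested. Mutually exclusive exons gave 1526 (11.3%) above and 1194 (8.81%) below of 13547, with 193 (1.49%) and 124 (0.957%) called of 12963. For this kind the PSI follows 1 exon of the pair, and which one is not stated, so the direction carries no reading. Alternative splice sites gave 347 (6.17%) above and 124 (2.21%) below of 5621, with 26 (0.566%) and 4 (0.087%) called of 4596. Events of 1 gene often share exons and are not independent of each other.

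**Figure D3:**
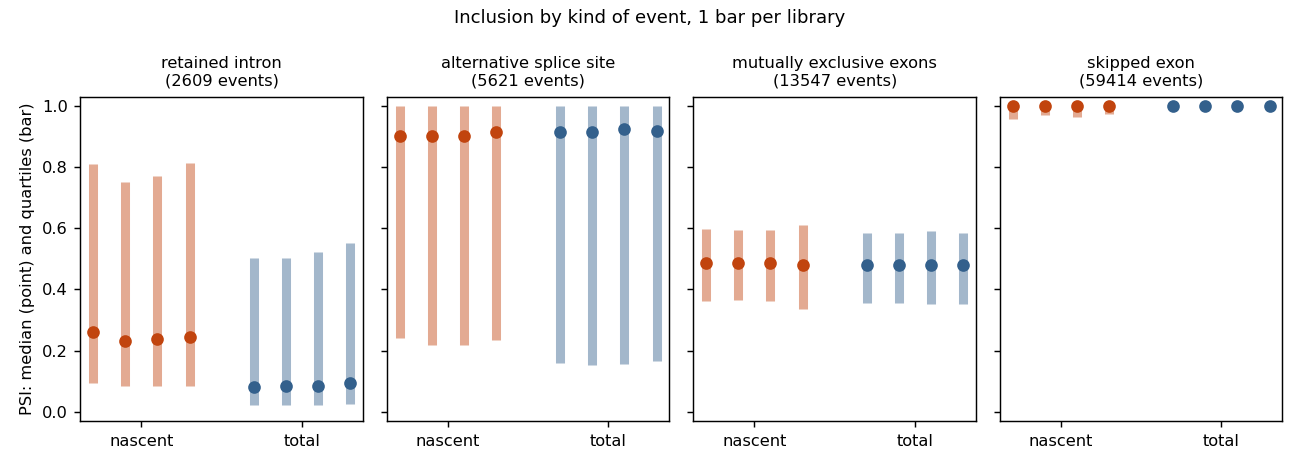
Median PSI (point) and quartiles (bar) over all events of each kind, 1 bar per library, with the 4 nascent libraries left and the 4 total libraries right. Retained introns sit at medians of 0.232 to 0.262 in nascent and 0.082 to 0.093 in total RNA. The other kinds have nearly equal medians, which for skipped exons are at the upper bound of 1 in every library.

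The introns with the largest differences among those called in the 20-library fit are printed because their retention carries the finding: whole where they have at most 300 bases, and otherwise their first 20 and last 30 bases, from GENCODE transcripts on GRCm38, on the strand of the gene, 5′ to 3′. Capitals mark the splice site bases at both ends. All begin with GT and end with AG except the Rps6kb2 intron, which begins with GC.
Phykpl (75 nucleotides): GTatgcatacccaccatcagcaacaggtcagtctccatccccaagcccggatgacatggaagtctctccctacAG
Snx32 (94 nucleotides): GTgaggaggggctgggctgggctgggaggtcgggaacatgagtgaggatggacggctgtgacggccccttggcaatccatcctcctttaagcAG
Rasa4 (230 nucleotides): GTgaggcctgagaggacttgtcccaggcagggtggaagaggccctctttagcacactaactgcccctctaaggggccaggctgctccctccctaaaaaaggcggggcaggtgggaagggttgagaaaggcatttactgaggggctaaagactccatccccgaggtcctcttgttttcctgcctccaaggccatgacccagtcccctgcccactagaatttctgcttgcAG
Nrip2 (245 nucleotides): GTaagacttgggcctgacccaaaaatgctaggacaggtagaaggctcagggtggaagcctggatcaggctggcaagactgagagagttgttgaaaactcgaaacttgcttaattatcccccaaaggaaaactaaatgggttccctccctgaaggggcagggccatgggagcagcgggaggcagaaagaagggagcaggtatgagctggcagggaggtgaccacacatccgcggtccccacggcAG
Rps6kb2 (111 nucleotides): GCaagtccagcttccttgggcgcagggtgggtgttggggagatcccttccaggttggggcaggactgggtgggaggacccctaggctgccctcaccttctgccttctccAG
Carns1 (241 nucleotides): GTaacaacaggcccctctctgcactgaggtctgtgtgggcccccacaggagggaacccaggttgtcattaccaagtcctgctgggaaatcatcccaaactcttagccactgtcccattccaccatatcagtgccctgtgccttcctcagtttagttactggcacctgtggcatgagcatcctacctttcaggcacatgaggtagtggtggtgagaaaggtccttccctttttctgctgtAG
Fxr1 (87 nucleotides): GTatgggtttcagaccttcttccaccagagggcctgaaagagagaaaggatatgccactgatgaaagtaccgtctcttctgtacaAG
Cdk10 start of intron: GTgtgagagggaggcgctgc
Cdk10 end of intron: tccaacctgtgcctctggacctcctcttAG
Metap1d start of intron: GTggtatcttaccaagcctc
Metap1d end of intron: tgttgctgcacactttatttcctgtttcAG
Srsf5 start of intron: GTttgttgaaatacagtttt
Srsf5 end of intron: ctctccttaacataattgtcttgtgttaAG

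Cdk10, a cyclin-dependent kinase, had the largest difference among retained introns. Its intron 5 of 12, of 587 nucleotides (chromosome 8, 123227742 to 123228328), had a PSI of 1, 0.852, 1 and 1 in the nascent libraries, against 0.133, 0, 0.4 and 0.077 in the total libraries. The nascent libraries were nearly all retained and the total libraries mostly spliced (PSI difference 0.81, SE 0.0877, adjusted p = 0.0094). In treated mice the Cdk10 difference was 0.40 and did not pass (limma, adjusted p = 0.23). Phykpl, an enzyme of lysine breakdown, retained its intron 5 of 12, of only 75 nucleotides (chromosome 11, 51592094 to 51592168), at 0.957, 0.77, 0.79 and 0.821 in the nascent libraries, against 0.051, 0.048, 0.107 and 0.114 in the total libraries (PSI difference 0.754, SE 0.0774, adjusted p = 0.0079). Snx32, a sorting nexin, had 0.805, 1, 1 and 0.72 in the nascent libraries, against 0.181, 0.154, 0.147 and 0.171 in the total libraries for its intron 3 of 11 (chromosome 19, 5498302 to 5498395; PSI difference 0.718, SE 0.0848, adjusted p = 0.012). In all 3 genes, the lowest nascent library stood above the highest total library.

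Rasa4, a Ras GTPase activator, retained its intron 10 of 20 (chromosome 5, 136101395 to 136101624) at 0.912, 0.984, 0.797 and 0.969 in the nascent libraries, against 0.291, 0.214, 0.297 and 0.205 in the total libraries (PSI difference 0.664, SE 0.065, adjusted p = 0.0067). For Metap1d, the mitochondrial methionine aminopeptidase, the intron 3 of 9 (chromosome 2, 71509891 to 71511411), the longest of the named introns, had 0.939, 0.774, 0.421 and 0.765 in the nascent libraries, against 0.089, 0.022, 0.102 and 0.083 in the total libraries. Nascent replicate values spread more widely here, but the groups did not overlap (PSI difference 0.651, SE 0.101, adjusted p = 0.029). Nrip2, a nuclear receptor interacting protein, retained its last intron (chromosome 6, 128407739 to 128407983) at 1, 1, 1 and 0.871 in the nascent libraries, against 0.321, 0.368, 0.067 and 0.524 in the total libraries (PSI difference 0.648, SE 0.0981, adjusted p = 0.027).

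Rps6kb2, an S6 kinase, retained intron 9 of 14 (chromosome 19, 4158718 to 4158828) at 0.73 ± 0.162 in nascent RNA and 0.0935 ± 0.0358 in total RNA (SD, n = 4 each; PSI difference 0.636, SE 0.0959, adjusted p = 0.027). Carns1, which makes the muscle dipeptides carnosine and anserine, retained intron 5 of 9 (chromosome 19, 4171171 to 4171411) at 0.861 ± 0.142 in nascent RNA and 0.232 ± 0.121 in total RNA (PSI difference 0.628, SE 0.0837, adjusted p = 0.018). Over these 8 introns the log2 difference of the gene itself ran from -1.44 in Nrip2 to 1.02 in Rasa4.

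Only 2 introns were lower in nascent RNA in the 20-library fit, both in genes of RNA-binding proteins. Srsf5, an SR splicing factor, held its intron 5 of 7, of 1229 nucleotides (chromosome 12, 80947866 to 80949094), at 0.472, 0.459, 0.431 and 0.435 in the nascent libraries, against 0.645, 0.667, 0.654 and 0.767 in the total libraries (PSI difference -0.234, SE 0.0317, adjusted p = 0.018). Fxr1, a muscle-rich relative of the fragile X protein, held its intron 12 of 15 (chromosome 3, 34058082 to 34058168) at 0.299, 0.314, 0.311 and 0.267 in the nascent libraries, against 0.493, 0.506, 0.511 and 0.562 in the total libraries (PSI difference -0.22, SE 0.0379, adjusted p = 0.043). In both, every nascent library lay below every total library. The widest gaps among the 15 introns below total RNA without overlap were in Coq6, at 0.418 in nascent against 0.94 in total RNA, and Ufsp2, at 0.589 against 0.983; neither was called.

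**Figure D4:**
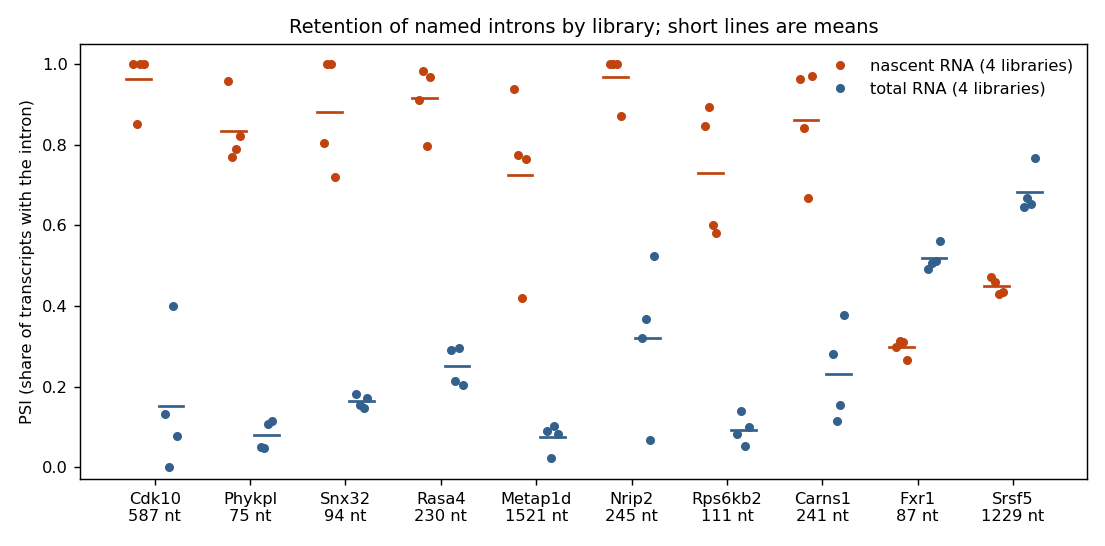
PSI of 10 named introns in the 4 nascent (left, red) and 4 total (right, blue) libraries; short lines are means and intron lengths stand under the names. In the first 8 introns the nascent points lie above the total points, from 0.81 apart in the mean for Cdk10 to 0.628 for Carns1, and in Fxr1 and Srsf5 below.

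The 894 introns that stood above total RNA without overlap were shorter and rarely first. Their median length was 228 nucleotides, against 314 for the 1700 introns whose groups overlap. In total RNA they were mostly removed, with a median PSI of 0.203 in nascent and 0.0376 in total RNA, whereas introns with overlapping groups had 0.338 and 0.183. By 4 groups of length, 37.1%, 39.6%, 31.9% and 28.5% stood above, from the shortest to the longest (34.3% overall). By position in the transcript, it was 9 of 65 first introns, 815 of 2171 internal and 68 of 219 last introns. The median GC content was 52.4% against 51.1%. These are descriptions with no test.

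The share of introns that stood apart is given by gene class as a description, with no test. Over all 2609 retained introns, 34.3% stood above and 0.575% below total RNA without overlap. In ribosomal protein genes, 21 of 33 retained introns stood above without overlap, with median PSI of 0.382 in nascent and 0.0403 in total RNA, but the median difference of an intron was 0.0398. In proteasome genes it was 13 of 16 (median PSI 0.0996 in nascent and 0.0264 in total RNA). In oxidative phosphorylation genes 6 of 7 stood above and 1 below without overlap. In SR and hnRNP genes, 5 of 22 stood above and 1 below, and the median PSI was 0.429 in nascent and 0.483 in total RNA. None of 11 introns of chromatin regulators stood above, nor any of 7 of collagen and matrix genes. By the call of the gene, 433 of 1559 introns (27.8%) stood above in genes called higher and 313 of 632 (49.5%) in genes called lower in nascent RNA.

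The exons called higher with the largest differences were in Phldb2, Xpo6, Iqgap1, Sorbs2 and Actg1. A 183-nucleotide exon of Phldb2, a cortical anchoring protein (chromosome 16, 45774163 to 45774345), was included at 1, 1, 1 and 1 in the nascent libraries, against 0.04, 0.222, 0.083 and 0.282 in the total libraries (PSI difference 0.843, SE 0.0908, adjusted p = 0.0094). A 34-nucleotide exon of Xpo6, the export receptor of actin (chromosome 7, 126149504 to 126149537), was at 0.941 ± 0.0711 in nascent RNA and 0.187 ± 0.106 in total RNA, a difference of 0.754 (adjusted p = 0.02). Skipped exons of Iqgap1, a scaffold of the actin cortex, Sorbs2, a Z-disc adaptor, and Actg1, gamma actin, differed by 0.748 (adjusted p = 0.0046), 0.676 (adjusted p = 0.011) and 0.674 (adjusted p = 0.0046). In each of these 5 events every nascent library stood above every total library.

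Among the decreases, a 71-nucleotide exon of Il15ra, the interleukin 15 receptor alpha chain (chromosome 2, 11727763 to 11727833), was included at 0.135, 0.386, 0 and 0.369 in the nascent libraries, against 1, 1, 0.539 and 1 in the total libraries (PSI difference -0.662, SE 0.107, adjusted p = 0.033). Mutually exclusive exons were lower in Actn4, alpha actinin 4, at 0.239 ± 0.113 in nascent RNA and 0.879 ± 0.0284 in total RNA, and in Gm45062, at 0.494 ± 0.142 in nascent RNA and 0.99 ± 0.021 in total RNA. For these the counted exon is not known. In treated mice the differences were -0.317 for Il15ra, -0.52 for Actn4 and -0.19 for Gm45062. In all 3 events every nascent library of the PBS mice lay below every total library.

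The authors' separate table holds 36 events of this disease model, 35 of them exons. In HSALR PBS mice, 30 of the 36 had overlapping nascent and total libraries, 2 lay above and 4 below without overlap, and the median absolute difference was 0.05 PSI. Over all 59414 skipped exons, 0.704% lay above and 3.8% below without overlap, and 15894 had the same value in all 8 libraries. The exon of Atp2a1 (chromosome 7, 126446545 to 126446586) was included at 0.23, 0.393, 0.257 and 0.34 in the nascent libraries, against 0.193, 0.344, 0.216 and 0.274 in the total libraries. For Clcn1 (chromosome 6, 42293444 to 42293522), the values were 0.614, 0.442, 0.449 and 0.377 in the nascent libraries, against 0.481, 0.251, 0.388 and 0.253 in the total libraries. Both pairs of groups overlap, while within each of the 4 pairs the nascent library was the higher one for either exon. Neither passed in the paired limma fit of 8 libraries (adjusted p = 0.2 for Atp2a1 and 0.2 for Clcn1). Over the 36 events, 4 were higher and 14 lower in nascent RNA in all 4 pairs. The matching count over all events was not made, so this lean cannot be called particular to the 36.

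The Mbnl1 exon (chromosome 3, 60614683 to 60614736) was at 0.404 ± 0.0579 in nascent RNA and 0.468 ± 0.0531 in total RNA and the exon of Ldb3, a Z-disc protein (chromosome 14, 34555343 to 34555528), at 0.743 ± 0.0686 in nascent RNA and 0.815 ± 0.0577 in total RNA (SD, n = 4 each). These groups overlap as well, with the nascent library lower in all 4 pairs of both. The events above total RNA were in Trim55, a sarcomeric ubiquitin ligase, at 0.697 ± 0.0474 in nascent RNA and 0.546 ± 0.045 in total RNA, and in Phka1, of phosphorylase kinase, at 0.264 ± 0.0608 in nascent RNA and 0.165 ± 0.0183 in total RNA. Those below were in Kif13a, a kinesin, at 0.403 ± 0.08 in nascent RNA and 0.654 ± 0.0902 in total RNA, in Ttn, titin, at 0.843 ± 0.0135 in nascent RNA and 0.948 ± 0.006 in total RNA, in Rapgef1 at 0.0815 ± 0.0423 in nascent RNA and 0.175 ± 0.0403 in total RNA, and in Neb, nebulin, at 0.946 ± 0.0246 in nascent RNA and 0.979 ± 0.00907 in total RNA. Of the 36 events, 29 were found in the whole table and 26 had the values for the 20-library fit, which called 1, the Kif13a exon (adjusted p = 0.033). Camk2b is not among the 36.

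**Figure D5:**
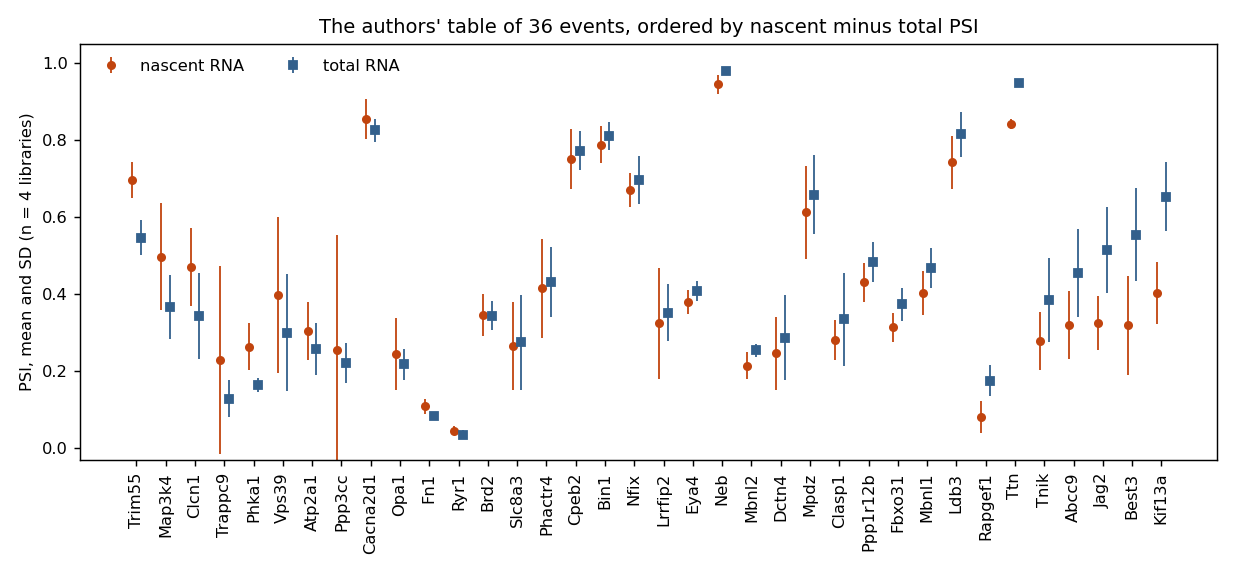
Mean PSI with SD (n = 4 libraries) in nascent (circles, left) and total RNA (squares, right) for the authors' 36 events, ordered from the most raised to the most reduced in nascent RNA. Differences run from 0.15 in Trim55 to -0.251 in Kif13a, and most error bars overlap.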

How the data were processed

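The 8 libraries were nascent (EU-containing) and corresponding total RNA, made with ribosomal RNA depletion and a directional kit, per the labels' protocols. Gene values were deposited by the authors as TPM, and splicing as the PSI fraction from rMATS, also deposited by the authors; kallisto, STAR and cutadapt are listed, with mm10 and GRCm38 as builds and no role for any, per the submitters' processing notes. 24526 genes were read, and 2 reporter entries were left out of the tests. Event kinds were taken from the coordinates. Genes (log2(TPM + 1), mean of at least 1 TPM) and events (linear PSI, a value in all 8 libraries) went into two-sided limma tests (limma 3.58.1, R 4.3.3) that held the pair as a block and let the prior variance follow the mean level, with p-values adjusted by Benjamini-Hochberg over the whole table. Calls were an adjusted p under 0.05 and, for events, a difference of at least 0.1; the scripts were tested on simulated data. The protocol ties each EU RNA to its total RNA. Same-numbered libraries correlated at 0.29, 0.2, 0.13 and 0.16 after group means were removed, each best with its own number. The highest correlations with another number were 0.0063, -0.013, 0.12 and 0.065, so replicate 3 was nearly tied. For PSI the same-number correlations were only 0.032, 0.018, 0.0076 and 0.036, against at most 0.012, 0.0036, 0.0042 and -0.0059 with another number. Named genes were the 12 largest differences in each direction (mean of at least 10 TPM, the same sign in all pairs), and from each list the 2 largest and the most abundant; named events were the 8 largest introns and 5 largest other events in each direction, taken from the fit of all 20 libraries because that of 8 called none. Some items that the rules name are not reported here. Members and lists were chosen with earlier results of these data known. Gene types and microRNA sequences came from RefSeq, transcripts and introns from GENCODE vM21. Exon starts in the whole splicing table count from 0 and were raised by 1.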

Additional observations from a re-analysis of the deposited data

Results flagged for a closer look

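Of 275 groups of 4 values checked, 25 had 1 library far from the other 3 (a gap large against the group's range, Dixon's test), and chance flags about 1 in 20 groups. Nascent replicate 1 stood apart in Hbb-b1 (16.2 TPM, the others 22.8 to 24), Dcn (35.8 TPM, the others 54.4 to 57.4) and Hist1h3b (0.33 TPM, the others all at 0). Nascent replicate 2 stood apart in Mir3100 (355 TPM, the others 102 to 119.8), Mir133a-1 (118 TPM, the others 55.1 to 61.9), Mir208b (31.4 TPM, the others all at 0) and Cdk10 (0.852 PSI, the others all at 1). Nascent replicate 4 stood apart in Gm22109 (1700.0 TPM, the others 279.7 to 356), Acta1 (16582 TPM, the others 19183 to 19519), Rplp0 (192 TPM, the others 261 to 270.4), Atp5e (282 TPM, the others 394 to 415) and Nrip2 (0.871 PSI, the others all at 1). Total replicate 1 stood apart in Acta1 (59178 TPM, the others 54409 to 55014), Hk2 (198 TPM, the others 219.6 to 224), Col1a1 (398 TPM, the others 729 to 776), Pdgfrb (30.7 TPM, the others 36.7 to 37.3) and Mir206 (8.13 TPM, the others all at 0). Total replicate 2 stood apart in Hspa8 (1603 TPM, the others 1507 to 1521), Fbxo32 (133 TPM, the others 81.3 to 84.8) and Kif13a (0.787 PSI, the others 0.587 to 0.621). Total replicate 3 stood apart in Mir3620 (1.87 TPM, the others all at 0) and Il15ra (0.539 PSI, the others all at 1). Total replicate 4 stood apart in Pmp22 (65.3 TPM, the others 50.8 to 52.1), Mir30e (3.47 TPM, the others all at 0) and Gm45062 (0.958 PSI, the others all at 1). The value of Gm22109 is shared by the 5 other ribosomal RNA copies with identical values. The nascent library of replicate 4 was the lowest in Acta1, Rplp0 and Atp5e and the highest in Gm22109, and each of these comparisons kept its direction without that pair. Reporter entries outside the gene set carried signal: mCherry had 4279, 4113, 4892 and 3633 TPM in nascent and 219, 203, 239 and 208 TPM in total RNA (means 4229 and 217), and EGFP had means of 39.8 and 288 TPM. Both are at 0 in 24 libraries of another cohort and have no value in 54 further libraries; the sources used here do not say what they are. The nascent minus total difference of Txlnb was larger in PBS than at 2 days of treatment by 1.17 on the log2 scale (limma, SE 0.12, adjusted p = 0.025): it had 346, 398, 429 and 545 TPM in nascent and 179.9, 229.5, 218 and 245 TPM in total RNA of PBS mice, against 383, 348 and 368 and 498, 403 and 370.4 TPM at 2 days. Without the treated pair that stands apart, the difference was also larger in PBS for Gm22109, by 6.07 (limma, adjusted p = 0.01), and for Mir344b, by 4.66 (limma, adjusted p = 0.031). In that omitted pair Gm22109 had 8454 TPM in nascent and 8.58 TPM in total RNA.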

How the results depend on the processing

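Gene counts stayed within 1.5 times of 8794 higher and 3125 lower without the replicate block (8540 and 2970, so the pairing changed few calls), with a pseudocount of 0.1, no filter on TPM, all 20 or 18 libraries, no trend and protein-coding genes only. Leaving out each pair gave 8512 to 8674 higher and 2923 to 3022 lower. With a mean of at least 10 TPM, which tests fewer genes, there were 5750 higher and 1931 lower, with equal medians 5240 and 6267, and with equal medians and no replicate block 5049 and 6020. Among the 113 named genes tested, 4 changed sign with equal medians: Spry1 (-0.0264, and -0.0264 also without the block), hACTA1 (-0.215, and -0.215 also without the block), Myh4 (-0.73, and -0.73 also without the block) and Rn45s (-0.127, and -0.127 also without the block). Myh4 passed with protein-coding genes only (0.216). Hist1h1c and Hspa8 lost their calls with equal medians, Snhg1 with equal medians and no block, Plin1 lost its call without the block and Hist1h3b with a pseudocount of 0.1; leaving out 1 pair ended the calls of Hist1h3b (without pair 2, 3 or 4), Mir126a (1 or 4) and Snord15a (2 or 4). Event calls depended on how the spread was estimated. The paired fit called 0 higher and 0 lower, 0 and 0 of them introns, as it did without each pair, at a minimum difference of 0.2 and with values in at least 3 pairs. It called 723 higher and 443 lower (208 and 3 introns) with no replicate block, 21 and 4 (8 introns higher) on the logit scale, 34 and 27 (9 introns higher) with no trend, and 389 and 204 (123 and 2 introns) with 20 libraries. The alternatives added after seeing the data gave 584 and 333 (180 and 3 introns) with 18 libraries and 105 and 35 (44 introns higher) over events that range over at least 0.1. The cause was not tested. The contrast with treated mice called 1 gene at 2 days, and 18 genes and 4 events with 18 libraries, with identical ribosomal copies counted separately. Of these events, 3, chosen after their values were seen, are skipped exons of Pi4k2b, Mrps18c and Htt, at 1 in every PBS library. All 20 named events kept their direction under every alternative run. Rescaling without mitochondrially encoded genes was not run, since none has a value. With no counts deposited, the depth behind a PSI or a low TPM is unknown, which limits low genes, hairpins and rarely covered events most.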
